A study of Mus musculus with 9 samples.

Results

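V3 was 1 of 10 clusters of visceral motor neurons that the authors named V1 to V10 in single-nucleus RNA sequencing (snRNAseq) of cholinergic nuclei from adult mouse spinal cord. Its members were the nuclei that carry the name V3 in the deposited annotation. They numbered 722 of 5613 visceral nuclei (12.9%), of 16042 cholinergic nuclei (4.50%) and of 34231 annotated nuclei. The working markers of the cluster were Postn and Fbn2.

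Nuclei were sorted for green fluorescence from mice aged 8 weeks with the strain name Chat-IRES-Cre::Sun1-sfGFP and the genotype Chat-iCre:+/wt; SUN-SfGFP:+/wt, so that the nuclear envelope protein Sun1 was tagged in every cell that had expressed Cre from the Chat locus at any age. Each cord was divided into a cervical, a thoracic and a lumbar/sacral piece, and each piece was pooled over 4 mice. The pool called replicate 1 mixed 2 males with 2 females, replicate 2 held 4 males and replicate 3 held 4 females, which gave 9 libraries, 3 for each region, from 12 mice in 3 pools. All libraries shared strain, genotype and age, and the 3 libraries of a pool came from the same animals. Region differed between the libraries of a pool. Sex coincided with the pool of mice and its processing replicate, so that a sex difference and a pool difference cannot be told apart. The deposited values were corrected unique molecule counts, from which sums over the V3 nuclei of a library were scaled to a common total (CPM, counts per 1000000 corrected counts).

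Visceral motor neurons are the preganglionic neurons of the autonomic nervous system. They sit mostly in the lateral horn, release acetylcholine, and act on smooth muscle, glands and heart through a second neuron in a peripheral ganglion. Sympathetic preganglionic neurons are classically placed at thoracic and upper lumbar levels and the parasympathetic ones of the cord at sacral levels, so that region is the first axis along which a visceral cluster is examined.

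The libraries held 35 to 183 V3 nuclei, with a median of 4519.5 to 15936 corrected counts and 2124 to 4809 genes per V3 nucleus. The lumbar/sacral libraries were the shallowest, with V3 medians of 4519.5, 6496 and 4815.5 against 7019 or more in the other 6. The doublet caller marked 9 V3 nuclei (1.25%), against 164 of all cholinergic nuclei (1.02%). A barcode sequence that occurs in more than 1 library was found 130 times over all nuclei and touched 4 V3 nuclei.

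The cervical and thoracic libraries of replicate 2 went against their labels in cells outside V3. Hoxc5, a homeobox gene whose domain begins within the cervical cord, stood in skeletal motor neurons at 16.1, 82.5 and 15.6 CPM in the libraries labelled cervical 1, 2 and 3, and at 101, 9.44 and 94.5 CPM in those labelled thoracic 1, 2 and 3. In cholinergic interneurons Hoxc5 was at 14.0, 50.9 and 9.28 CPM in cervical 1, 2 and 3 and at 56.4, 7.23 and 48.1 CPM in thoracic 1, 2 and 3. The visceral cluster V5 held 198, 5 and 77 nuclei in cervical 1, 2 and 3, and 15, 116 and 1 in thoracic 1, 2 and 3. The library labelled cervical 2 therefore lay with thoracic 1 and 3 in all 3 measures, and the library labelled thoracic 2 with cervical 1 and 3. Hoxd11, a caudal Hox gene, was at 0 in both classes in all 6 cervical and thoracic libraries and at 11.7 to 37.3 CPM in the lumbar/sacral ones, whose labels it did not go against. Labels were kept as given. The estimated lumbar/sacral difference in V3 gene levels does not depend on which of the 2 libraries is cervical. Its SE, p-values and calls do, because cervical and thoracic cord had separate means in the fit. Against V5 the estimate depends on it too, since thoracic 2 was used there without cervical 2. Through the region term, SE, p-values and calls between the male and female pools also depend on these labels. V3 shares and gene calls of thoracic against cervical are given with and without replicate 2. Other cervical and thoracic means include it.

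**Figure D1:**
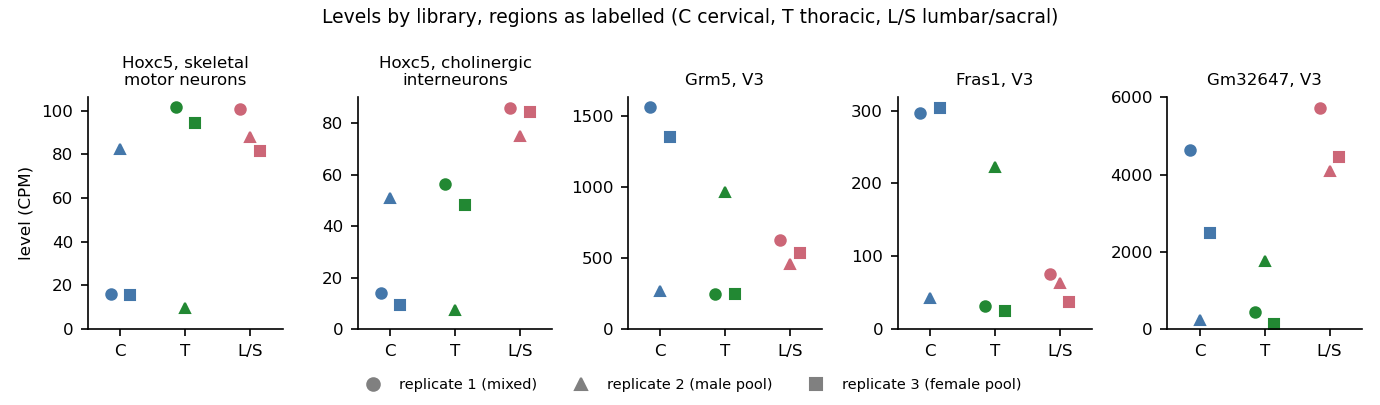
Levels in CPM (y axis, linear) in the 9 libraries, by labelled region (x axis), for Hoxc5 in skeletal motor neurons and cholinergic interneurons and for Grm5, Fras1 and Gm32647 in V3. Circles, triangles and squares are replicates 1, 2 and 3, and the triangles of replicate 2 lie with the opposite region, as in Hoxc5 of skeletal motor neurons at 82.5 CPM in cervical 2 and 9.44 CPM in thoracic 2.

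The class markers of visceral motor neurons and the 2 working markers were present in V3. Zeb2, a transcription factor that marks the visceral class, had a value in 82.6% to 97.1% of V3 nuclei per library, and Chat, the acetylcholine-synthesising enzyme, in 50% to 91.4%. Fbn2, which encodes the microfibril protein fibrillin-2, had a value in 84.1% to 100% of V3 nuclei. Postn, which encodes the matrix protein periostin (3:54361109-54391037, plus strand, GRCm38), had one in 61.3% to 88.6%. Markers of skeletal motor neurons summed to 502 to 862 CPM in V3, against 1029 to 1548 CPM in skeletal motor neurons themselves and 545 to 901 CPM in the other visceral nuclei. Glial and vascular lists were low, with the 6 oligodendrocyte markers at 17.2 to 66.6 CPM in V3 and 40.1 to 63.4 CPM in the other visceral nuclei, the 5 astrocyte markers at 9.66 to 37.0 CPM and the 7 fibroblast and mural markers at 0 to 5.55 CPM, with Col1a1, Col1a2 and Lum at 0 in every library. The microglial markers summed to 2.46 to 78.0 CPM in V3 (4.83 to 90.4 CPM in the other visceral nuclei), the endothelial ones to 2.46 to 17.0 CPM with Cdh5 at 0, and the excitatory ones to 0 to 17.2 CPM.

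The first question was how common V3 is along the cord. V3 made up 17.0%, 8.33% and 16.8% of the visceral nuclei in cervical 1, 2 and 3, 8.83%, 10.9% and 9.81% in thoracic 1, 2 and 3, and 13.7%, 16.7% and 15.4% in lumbar/sacral 1, 2 and 3. The libraries of lumbar/sacral cord lay inside the range of the cervical ones, and the cervical range was set by cervical 2. Group means were 14.1% ± 4.96 (SD, n = 3) cervical, 9.86% ± 1.06 thoracic and 15.2% ± 1.5 lumbar/sacral. The lumbar/sacral share was 3.28 percentage points above that of the other 6 libraries (two-sided exact permutation test over the 9 libraries, p = 0.214, smallest possible p = 0.0119). With all cholinergic nuclei as the denominator the difference changed sign to -1.14 points (exact permutation p = 0.214). The thoracic share was 4.20 points below the cervical one (exact permutation p = 0.4, smallest possible 0.1), and 7.60 points below it without replicate 2, where 4 libraries cannot give an exact permutation p under 0.333. A share of sorted nuclei reflects how many nuclei of each kind were recovered, so that more V3 nuclei and fewer nuclei of other kinds cannot be told apart.

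**Figure D2:**
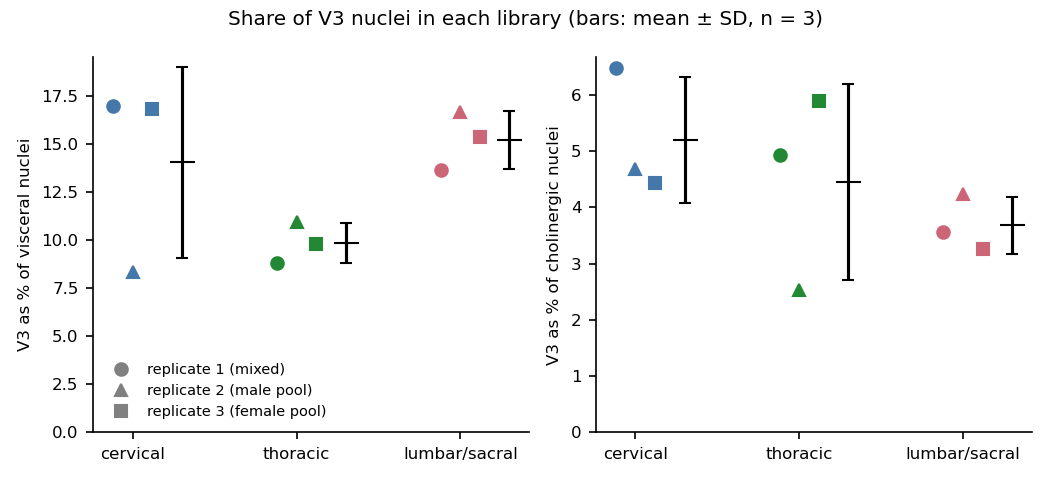
V3 nuclei as a percentage of visceral nuclei (left) and of all cholinergic nuclei (right) in each of the 9 libraries, by labelled region, with the mean ± SD over 3 libraries. The lumbar/sacral points, 13.7% to 16.7% of visceral nuclei, lie above the thoracic ones on the left, while on the right the mean is lowest in lumbar/sacral cord.

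The next question was which genes set V3 apart from the other visceral clusters. Since the clusters were drawn from these same genes, the comparison is a description and no test was run on it. A gene was taken as set apart when its level in V3 was at least 1 unit higher, or lower, on the log2(CPM + 5) scale than the mean of the other V clusters in each of the 9 libraries. Only clusters with at least 10 nuclei in a library entered, so that V5 entered in 7 libraries and V8 in 3. Of 13161 genes described, 26 were higher (0.198%) and 8 lower (0.0608%). The balance of directions depended on the reference. With the summed nuclei of the other V clusters in place of the mean of the clusters, 12 were higher, all of them among the 26, and 17 were lower, 6 of them among the 8. With at least 25 nuclei per sum 20 were higher and 3 lower, of which 18 and 2 were shared. Of the 8 lower genes, 5 were long non-coding RNAs.

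Of 44 extracellular matrix genes described, Postn was the only member set apart, and of 27 collagens Col24a1, beside 0.198% higher over all genes described. Postn was at 369 ± 135 CPM (SD, n = 9 libraries) in V3 and 45.2 ± 25.6 CPM in the mean of the other clusters, a median difference of 3.86 log2 units with a range over libraries of 3.26 to 5.12. It ranged in V3 from 195 CPM in thoracic 2 and 197 CPM in lumbar/sacral 2 to 619 CPM in thoracic 1, and the male pool's libraries were the lowest of each region. The next clusters were V7 at 167 CPM and V5 at 122 CPM, and V3 had the highest Postn in 7 of 9 libraries. Col24a1, a fibrillar collagen, was at 171 ± 173 CPM against 18.4 ± 11.7 CPM. Tll2, a tolloid-like metalloprotease that trims matrix and growth factor precursors, was highest in V3 in all 9 libraries, at 66.2 ± 63.3 CPM against 6.54 ± 5.67 CPM. Adamts19, another secreted metalloprotease, was at 30.6 CPM against 3.63 CPM. Fbn2 was not set apart, since it was not at least 1 log2 unit above the mean of the other clusters in every library. Its mean was 849 CPM in V3 over 9 libraries, 949 CPM in V2 and 1172 CPM in V8. V8 entered in 3 libraries only, and V3 of lumbar/sacral cord alone was at 1247 CPM. Of the working pair, Postn was thus the gene set apart by this rule.

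No receptor list was tested as a whole. Members set apart are given beside the 0.198% higher and 0.0608% lower over all genes described. They were 1 of 4 cholinergic receptor genes (Chrm3), 1 of 17 ionotropic glutamate receptor genes (Grik1), 1 of 18 GABA-A and glycine receptor genes (Gabrg1), 2 of 24 peptide receptor genes (Ramp1 higher and Tacr1 lower) and none of 11 adrenergic and serotonin receptor genes. Chrm3, the M3 muscarinic acetylcholine receptor, was highest in V3 in all 9 libraries, at 609 ± 315 CPM against 142 ± 128 CPM. Grik1, a kainate receptor subunit, was also highest in V3 in all 9, at 1196 ± 468 CPM against 251 ± 79.4 CPM. It was above V5 by a median of only 0.319 log2 units (0.117 to 2.88 over the 7 libraries with V5). Gabrg1, a subunit of the GABA-A receptor, was at 284 ± 138 CPM against 95.9 ± 38.7 CPM, and V10 was higher at 466 CPM. Drd2, the D2 dopamine receptor, was sparse at 37.4 ± 18.2 CPM against 7.0 ± 4.31 CPM, with V6 close behind at 34.4 CPM. Ramp1, the accessory protein of the receptor for calcitonin gene-related peptide, was at 26.8 ± 6.60 CPM against 4.96 ± 2.80 CPM. The receptor for substance P, Tacr1, went the other way, at 9.03 ± 3.76 CPM in V3 and 94.4 ± 31.4 CPM in the other clusters.

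The remaining genes higher in V3 included Synpr, which encodes the synaptic vesicle protein synaptoporin and stood at 180 ± 116 CPM against 13.9 ± 4.92 CPM, with the largest median difference together with Postn (3.86 log2 units). Bdnf, a neurotrophin, was at 71.2 ± 23.4 CPM in V3 and 69.3 CPM in V5, but at 13.9 CPM in the mean of the other clusters. Wls, which carries Wnt proteins to the cell surface, was at 59.2 CPM against 7.99 CPM. Plce1, a phospholipase C, Arhgap24, a GTPase-activating protein, Ptprt, a receptor tyrosine phosphatase, and the long non-coding RNA Gm30382 were also among the 15 largest differences, with medians between 2.16 and 2.48 log2 units. Tshz3, a zinc finger transcription factor, was the only set-apart member of the list of 66 transcription factors described, at 165 ± 69.6 CPM against 52.4 ± 16.7 CPM. Of the lists of genes for neuropeptides and their processing (31 described), for TGF-beta and BMP signalling (27) and for Hox proteins (13), no member was set apart, from which nothing is read at the background of 0.198% higher and 0.0608% lower over all genes.

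Detection in nuclei was compared at a common depth. After each nucleus was thinned to 3200 corrected counts, Postn had a value in 55.3% of V3 nuclei and 9.2% of the other visceral nuclei, means over 9 libraries. Synpr had one in 32.1% against 2.75%, and Chrm3 in 59.4% against 23.7%. Of 23 genes examined, thinning moved the difference in share by less than the spread between libraries in 21, and by more in Postn (from 59.8 to 46.1 percentage points) and Tacr1 (from -34.9 to -21.8 points), with no change of sign. Without thinning Postn was found in 61.3% to 88.6% of V3 nuclei and 7.13% to 20.6% of the others.

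The genes lower in V3 included a cluster of neighbours on chromosome 8. The 5 long non-coding RNA genes 4930555F03Rik, Gm45321, Gm45341, Gm2516 and C130073E24Rik lie between 49370886 and 50916997 (GRCm38), a span of 1.55 Mb in which the annotation has no protein-coding gene. Its 6 genes with enough signal to describe were lower in V3 in every library. C130073E24Rik, the strongest, was at 153 ± 38.8 CPM in V3 and 1058 ± 394 CPM in the mean of the other clusters. Low levels of this locus were shared with V5, where C130073E24Rik was at 165 CPM, and with V8, at 37.9 CPM. Against V2 the median differences of the 5 genes were -0.576 to -1.49 log2 units, and each range over 9 libraries crossed 0. Gm45341 and Gm2516 overlap on opposite strands, so that reads assigned to them may not be separable. Cdh12, a cadherin, was at 47.0 ± 19.8 CPM against 347 ± 78.0 CPM, and Itga9, an integrin subunit that binds matrix proteins, at 8.68 ± 7.05 CPM against 63.3 ± 19.5 CPM.

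**Figure D3:**
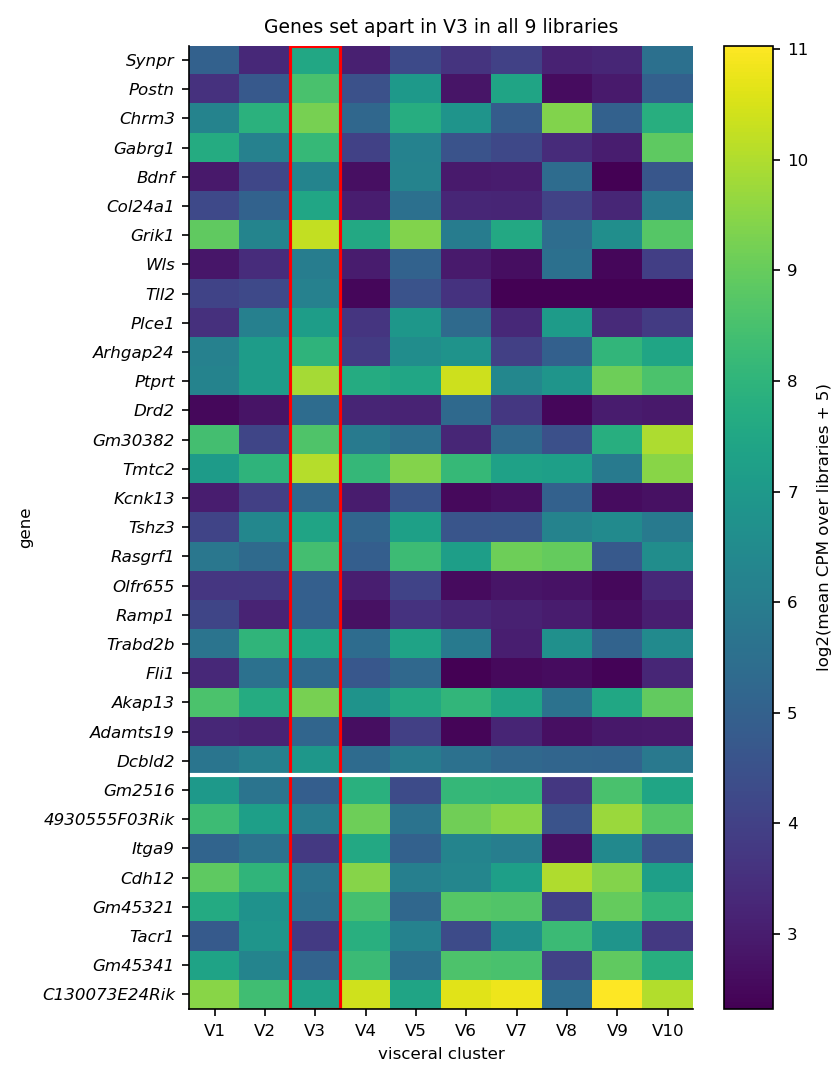
Mean level over libraries, as log2(CPM + 5) on the colour scale, of 33 of the 34 set-apart genes (rows) in the 10 visceral clusters (columns), with V3 boxed and the higher genes above the white line. Postn, Synpr, Tll2 and Adamts19 stand out in the V3 column, while Bdnf and the chromosome 8 genes have like levels in V5.

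V5 was the cluster nearest to V3 (Pearson r = 0.988 across genes of the mean log2 levels over 7 libraries with V5, a description in which genes share the libraries), followed by V2 (r = 0.983). Only 6 of the 26 higher genes were also 1 log2 unit or more above V5 in each of those 7 libraries: Ptprt, Postn, Gm30382, Gabrg1, Akap13 and Chrm3. Akap13 encodes an anchoring protein for protein kinase A. Of the 8 lower genes this held for Tacr1, which was 1.34 to 3.53 log2 units lower in V3 than in V5. Against V2 it held for 10 of the 26 and 2 of the 8. Sst and Penk, the peptides somatostatin and enkephalin, were at 9.90 and 16.6 CPM in V3, and Nos1, neuronal nitric oxide synthase, at 205 CPM.

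The nuclei of V3 also differed among themselves. Within libraries the variance over the trend of all genes was largest for Gm32647, Lsamp, Pcdh15, Unc5d, Lrrc4c, Tenm2, Kirrel3, Pcdh9, Adamtsl1 and Grik1, most of which encode adhesion or guidance proteins of axons and synapses. Across the nuclei of a library Unc5d, a netrin receptor, and Grik1 rose together (median r = 0.64, range 0.46 to 0.78 over 9 libraries), and Lsamp, a cell adhesion protein, ran against Grik1 (median r = -0.50, range -0.70 to -0.30). These correlations describe 722 nuclei that share libraries and a common depth correction. The V3 nuclei of each library were then split into an upper and a lower part by their Unc5d level. In lumbar/sacral 1, 2 and 3 only 48.9%, 44.0% and 41.4% of V3 nuclei had an Unc5d value, and the lower part was at 0 CPM, so that in these shallowest libraries the upper part joined the nuclei with a value to a few without one. For genes that correlate with Unc5d over the same nuclei the split restates the correlation on the CPM scale. Grik1 had means over libraries of 1669 CPM in the upper and 727 CPM in the lower part, and Postn (median r with Unc5d = 0.29, range 0.04 to 0.63) of 469 and 273 CPM. Pcdh15, a protocadherin, was at 3519 CPM in the upper and 1584 CPM in the lower part, and Lsamp at 5855 and 10536 CPM. Kirrel3, an adhesion protein of the immunoglobulin family, was at 287 CPM in the upper and 1206 CPM in the lower part, and Fbn2 and Zeb2 were higher in the upper part in 4 of 9 libraries each. Of the 26 genes higher in V3, 8 (30.8%) were higher in the upper part in all 9 libraries and 21 (80.8%) had a median difference above 0, beside 0.935% and 45.1% of the 13161 genes described. The 26 were chosen from these same nuclei, and the 13161 were not matched to them for level. No result about the 26 is therefore read from these shares.

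The main comparison of the design was region. V3 of lumbar/sacral cord was set against V3 of the other 6 libraries with limma on log2(CPM + 5). Of 10077 genes tested, 81 were higher and 75 lower in lumbar/sacral V3 at a Benjamini-Hochberg adjusted p under 0.05, which is 0.804% and 0.744%, or 1.55% together, and 861 had an unadjusted p under 0.05. With the pool as a block, which pairs the libraries from the same mice, 265 passed (116 higher, 149 lower) and all 156 were among them, which is 2.63% of genes tested. Without replicate 2, 125 passed (55 higher, 70 lower), 93 of them shared with the 156 and all in the same direction. The count rested on the lumbar/sacral libraries, since it was 74 without replicate 1 of that region, 40 without replicate 2 and 72 without replicate 3. For comparison, the 3 lumbar/sacral libraries lay wholly above the other 6 in 2.62% of genes tested and wholly below them in 2.86%.

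The largest increases were in Rxfp1, the receptor for the hormone relaxin, and in Reln, the secreted glycoprotein reelin. Rxfp1 was at 410, 191 and 322 CPM in lumbar/sacral V3 and between 0 and 1.30 CPM in the other libraries, with a median of 0. The difference was 5.81 ± 0.30 log2 units (SE, limma, adjusted p = 1.68e-06), a size that depends on the pseudocount because the other group is near 0. Reln was at 602, 458 and 495 CPM in lumbar/sacral V3 and at 11.1, 23.8 and 35.2 CPM as lowest, median and highest of the other 6 (4.24 ± 0.27 log2 units, limma adjusted p = 8.99e-06). No library of 1 group reached the other for either gene. After thinning, Reln had a value in 61.1% ± 5.47 of lumbar/sacral V3 nuclei and in 7.52% ± 1.12 of cervical and 6.58% ± 4.28 of thoracic ones (SD, n = 3).

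Other genes with the largest increases were the cadherin Cdh8, the transcription factor Ebf3, the alpha-1A adrenergic receptor Adra1a, the glycosyltransferase Galnt18, the heparan sulfate sulfatase Sulf1 and the zinc transporter Tmem163. Ebf3 was at 140, 130 and 132 CPM in lumbar/sacral V3 and at 1.60 to 6.44 CPM elsewhere (3.98 ± 0.28 log2 units, limma adjusted p = 1.66e-05). Adra1a was at 150, 102 and 109 CPM and at 2.79 to 9.25 CPM elsewhere (3.66 ± 0.28 log2 units, limma adjusted p = 3.5e-05). Erbb4, the neuregulin receptor, rose from a range of 122 to 259 CPM to 1876, 907 and 1398 CPM (2.78 ± 0.26 log2 units, limma adjusted p = 0.000177). Epha5, an ephrin receptor, rose from 149 to 265 CPM to 958, 1017 and 1127 CPM (2.40 ± 0.19 log2 units, limma adjusted p = 3.5e-05). For these 4 genes as for Rxfp1 and Reln the groups did not overlap, and the highest adjusted p over the alternatives that tested them was 0.00458. Cdh8 was more variable, with 0 to 97.1 CPM outside lumbar/sacral cord and 830, 464 and 448 CPM within it, and its adjusted p of 0.00709 rose to 0.062 in the least favourable alternative.

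Of the genes with the largest decreases, Plxdc2, a membrane protein related to plexins, fell from 287, 327 and 431 CPM (lowest, median and highest of 6) to 73.7, 30.5 and 30.5 CPM in lumbar/sacral V3 (-2.89 ± 0.25 log2 units, limma adjusted p = 9.8e-05). Stac, an adaptor protein of calcium channels, fell from 222 to 515 CPM to 78.6, 89.5 and 47.5 CPM (-2.20 ± 0.26 log2 units, limma adjusted p = 0.000848). Hpgds, a prostaglandin D synthase, fell from 126 to 315 CPM to 29.5, 38.6 and 54.3 CPM (-2.08 ± 0.28 log2 units). The matrix proteins Fn1 (fibronectin) and Col12a1 (a collagen), the cadherin Cdh20, Arpp21, a phosphoprotein regulated by cyclic AMP, and C130060K24Rik had log2 differences of -2.60, -2.52, -2.45, -2.69 and -2.82. In none of the 8 did a lumbar/sacral library reach the lowest of the other 6. Fn1, Col12a1, Arpp21 and Cdh20 had adjusted p of 0.00796, 0.0318, 0.0232 and 0.00404, which rose to 0.0729, 0.183, 0.161 and 0.0514 in the least favourable alternative.

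**Figure D4:**
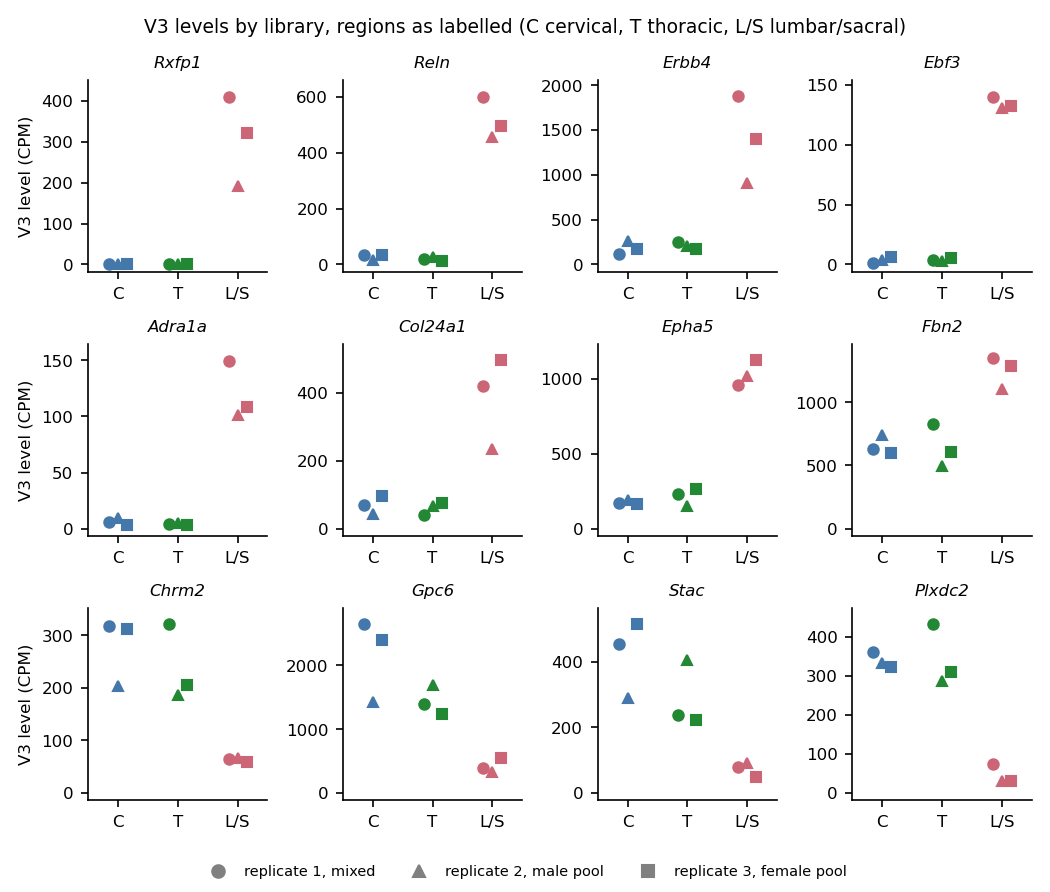
V3 level in CPM (y axes, linear, 1 panel per gene) in the 9 libraries by labelled region, with replicates 1, 2 and 3 as circles, triangles and squares. Lumbar/sacral points are higher for Rxfp1, Reln, Erbb4, Ebf3, Adra1a, Col24a1, Epha5 and Fbn2 and lower for Chrm2, Gpc6, Stac and Plxdc2, with no overlap in any panel.

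The gene lists are given beside the 1.55% of all genes tested that passed, and no list was tested as a whole. Among 32 extracellular matrix genes tested, 5 were higher in lumbar/sacral V3 (Fbn2, Reln, Tnc, Ntng1 and Sulf1) and 3 lower (Tnr, Fn1 and Gpc6), with a median of 0.05 log2 units over the list against -0.00058 over all genes tested. Fbn2 was at 1350, 1102 and 1289 CPM in lumbar/sacral V3 and 497 to 830 CPM elsewhere (0.95 ± 0.18 log2 units, limma adjusted p = 0.0232, up to 0.144 in the alternatives). Gpc6, a glypican, was at 393, 323 and 543 CPM against 1236 to 2649 CPM (-2.06 ± 0.23 log2 units, limma adjusted p = 0.000736). Of 18 collagens Col24a1 rose, from 41.4 to 96.6 CPM to 420, 234 and 495 CPM (2.45 ± 0.29 log2 units, limma adjusted p = 0.000848), and Col12a1 fell. Postn did not pass, at 350.4 ± 58.3 CPM, 405 ± 212 CPM and 352 ± 147 CPM in cervical, thoracic and lumbar/sacral V3 (limma adjusted p = 0.991). Of 22 TGF-beta and BMP signalling genes and 8 integrins none passed.

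In the receptor lists, Chrm2, the M2 muscarinic receptor, was the only 1 of 3 cholinergic receptor genes tested to pass. It fell from 187 to 322 CPM to 63.8, 67.1 and 57.7 CPM (-1.92 ± 0.21 log2 units, limma adjusted p = 0.000614), and thinned detection fell from 52.5% and 43.7% of cervical and thoracic V3 nuclei to 14.1%. Chrm3 was higher in every lumbar/sacral library, at 1174, 771 and 821 CPM against 177 to 737 CPM, but did not pass (limma adjusted p = 0.292, and 0.0219 without replicate 2). Of 7 adrenergic and serotonin receptors Adra1a rose and Htr2c, a serotonin receptor, fell (-1.26 ± 0.23 log2 units, limma adjusted p = 0.0141). Of 12 peptide receptor genes Rxfp1 rose, and Oprm1, the mu opioid receptor, and Hcrtr2, an orexin receptor, fell by 1.92 and 1.37 on the log2 scale. Of 15 ionotropic glutamate receptor genes Gria1 and Grin2b fell (-1.06 and -0.96 log2 units), and of 16 GABA-A and glycine receptor genes Glra1 rose by 1.5 and Gabrg1 fell by 1.67 on that scale. Of 18 neurotrophic receptors Gfra1, a receptor for GDNF, Erbb4 and Alk, a receptor tyrosine kinase, rose and none fell.

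Most members of the ion channel, adhesion and guidance lists did not pass. Of 45 potassium and HCN channel genes, Kcna4, Kcnab1, Kcnk2 and Kcnk13 rose, with differences of 1.56 to 2.34 log2 units, and Kcnc2 and Kcnh1 fell. Of 28 calcium and sodium channel genes Cacna1d rose, and of 11 Piezo and TRP channel genes none passed. Among 46 axon guidance genes Sema6a, Epha5 and Epha10 rose and Nrp2, Unc5d and Epha7 fell, and among 22 cadherins and protocadherins Cdh4, Cdh8 and Pcdh9 rose and Cdh2, Cdh7 and Cdh20 fell. Of 9 nitric oxide and cGMP genes the phosphodiesterase Pde1a rose and Pde1c fell. Of 23 neuropeptide genes Sst rose, from 1.60 to 5.12 CPM to 17.2, 34.6 and 20.4 CPM (1.87 ± 0.33 log2 units, limma adjusted p = 0.0125). None of the 3 genes of the cholinergic machinery tested and none of the 6 immediate early genes passed.

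Of 50 transcription factors Ebf3 and Zfhx3 rose and Ebf1 fell. Zfhx3, a homeobox protein, went from 7.69 to 24.8 CPM to 177, 120 and 197 CPM (3.13 ± 0.29 log2 units, limma adjusted p = 0.000172), whereas its list neighbour Ebf1 went from 1135 to 1989 CPM to 614, 638 and 872 CPM (-1.11 ± 0.23 log2 units, limma adjusted p = 0.0298). Of 6 Hox genes tested Hoxa10 and Hoxd11 rose. Hoxd11 was listed at 0 in all 6 cervical and thoracic V3 sums and at 29.5, 38.6 and 20.4 CPM in the lumbar/sacral ones, so that no fold is given.

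Several genes that set V3 apart from its class varied by region within it. All 26 higher genes were tested. In lumbar/sacral V3, 4 rose (Col24a1, Tll2, Trabd2b and Kcnk13) and 4 fell (Synpr, Gabrg1, Drd2 and Tmtc2). Over all 10077 genes tested, 0.804% rose and 0.744% fell. The 26 were chosen from these same V3 sums and were not matched to the other genes for level. No result about the 26 as a set is therefore read from these counts. Tll2 went from 19.3 to 38.8 CPM to 115, 203 and 109 CPM (2.13 ± 0.27 log2 units, limma adjusted p = 0.0013). Synpr went from 99.9 to 351 CPM to 44.2, 34.6 and 84.8 CPM (-2.06 ± 0.33 log2 units, limma adjusted p = 0.00709). None of the 8 lower genes passed. Unc5d, by which the V3 nuclei were split above, fell from 1355 to 2810 CPM to 815, 614 and 804 CPM (-1.49 ± 0.25 log2 units, limma adjusted p = 0.00769). Of the 75 genes lower in lumbar/sacral V3, 9 (12%) were higher in the upper Unc5d part in all 6 other libraries and 7 (9.33%) lower in it, against 3.75% and 3.04% of all genes tested. Unc5d is itself among the 9 by construction of the split, and genes that correlate with it over the same nuclei follow it. No result about the 75 genes is therefore read from these shares. Of the 81 genes higher in lumbar/sacral V3, 6 (7.41%) were higher and 2 (2.47%) lower in the upper part in those libraries.

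Markers of another class moved with region. The 5 cholinergic interneuron markers summed to 480 to 633 CPM in lumbar/sacral V3, 66.6 to 102 CPM in the other V3 sums and 745 to 989 CPM in cholinergic interneurons. Reln made up most of this sum in lumbar/sacral V3. Of the other members, Pax2, a transcription factor, was at 0, 0 and 3.39 CPM in lumbar/sacral V3 and at 0 to 9.07 CPM in the 6 cervical and thoracic V3 sums. Mpped2 was at 10.2 to 14.7 CPM in lumbar/sacral V3 and at 0 to 33.3 CPM in the 6 others. The 4 inhibitory markers summed to 40.7 to 88.4 CPM in lumbar/sacral V3 and 8.36 to 36.3 CPM elsewhere, against 272 to 363 CPM in cholinergic interneurons. The part of these markers, and of the lower depth of the lumbar/sacral libraries, in the region difference was not tested.

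Whether the region difference was particular to V3 was asked against V5. V5 had at least 10 nuclei in 7 libraries (cervical 1 and 3, thoracic 1 and 2 and the 3 lumbar/sacral ones), so that the rest of the cord was represented by 4 libraries. The difference between the region differences of V3 and V5, within libraries, passed for 112 of 10723 genes (1.04%) (limma, adjusted p under 0.05). In 59 of them (0.55%) the lumbar/sacral difference was higher in V3 than in V5, and in 53 (0.494%) it was lower. With the pool as a block 176 passed (89 and 87), and under median of ratios scaling the split was 81 to 46. The count was 65 without cervical 1, 65 without cervical 3, 206 without thoracic 1, 244 without thoracic 2, 54 without lumbar/sacral 1 and 38 without lumbar/sacral 2.

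Reln and Rxfp1 led the genes whose lumbar/sacral difference was higher in V3. In the 7 libraries Reln rose in V3 from a mean of 29.1 CPM (19.4 to 35.2) to 518 CPM (458 to 602), but was at 175 CPM (146 to 232) and 161 CPM (111 to 230) in V5 of the same libraries (difference of differences 4.11 ± 0.24 log2 units, limma adjusted p = 6.06e-08). Rxfp1 went from 0.524 to 308 CPM in V3 and from 16.0 to 57.8 CPM in V5 (4.26 ± 0.42 log2 units, limma adjusted p = 4.34e-05). Kcnab1, a potassium channel subunit, went from 67.2 to 229 CPM in V3 and from 153 to 64.3 CPM in V5, so that the directions were opposite (2.94 ± 0.30 log2 units, limma adjusted p = 4.34e-05). Gfra1 was at 64.6 CPM in lumbar/sacral V3 and 64.9 CPM in lumbar/sacral V5, and the difference lay in the other libraries, at 13.4 CPM in V3 and 75 CPM in V5 (2.29 ± 0.37 log2 units, limma adjusted p = 0.00381).

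Erbb4 and Prr16 led the reverse set. Erbb4 rose in both clusters, from 186 to 1394 CPM in V3 and from 54.3 to 3090 CPM in V5, by 3.1 ± 0.29 log2 units less in V3 (limma adjusted p = 3.65e-05). Prr16 was at 561 CPM and 333 CPM in V3 of the other and of the lumbar/sacral libraries and rose from 55.4 to 429 CPM in V5 (-3.71 ± 0.33 log2 units, limma adjusted p = 2.54e-05). Oprm1 fell in V3 from 32.9 to 4.26 CPM and was at 9.52 and 23.1 CPM in V5 (-3.01 ± 0.59 log2 units, limma adjusted p = 0.0163). Plce1, one of the genes that set V3 apart, was at 87.4 and 208 CPM in V3 and at 10.3 and 263 CPM in V5 (-2.80 ± 0.42 log2 units, limma adjusted p = 0.0019). Ebf3, Tll2, Hoxd11 and Fbn2 had no called difference between the clusters in how they varied by region (adjusted p of 0.893, 0.998, 0.824 and 0.623), which does not show that they varied alike.

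**Figure D5:**
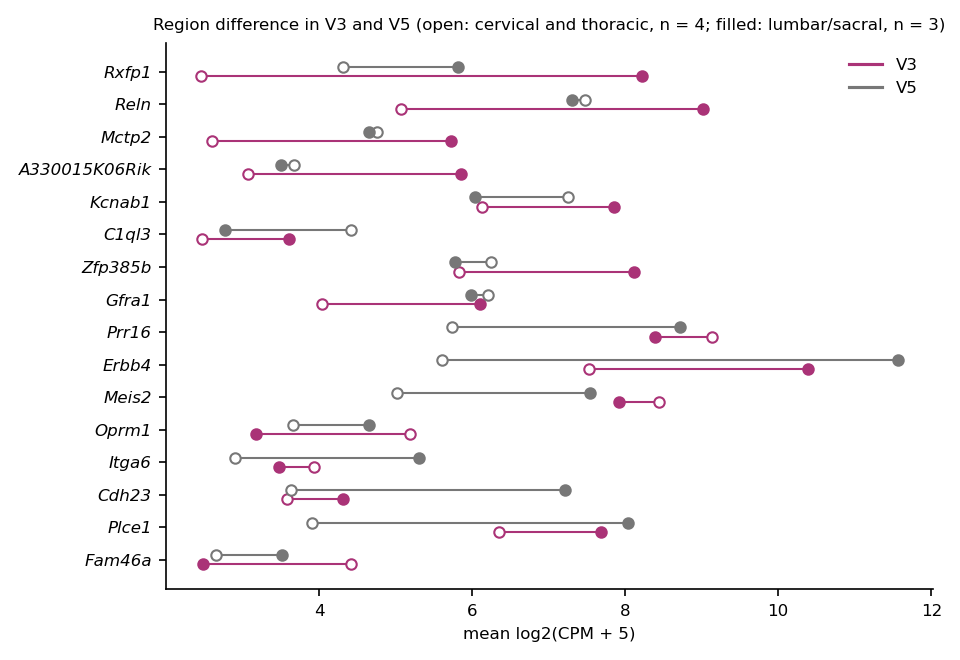
Mean log2(CPM + 5) on the x axis of 16 genes (rows) in V3 (purple) and V5 (grey) of the same 7 libraries, with open circles for the 4 cervical and thoracic libraries and filled circles for the 3 lumbar/sacral ones. Reln spans a long line in V3 and hardly any in V5, while Erbb4, Cdh23 and Plce1 span longer lines in V5.

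Thoracic against cervical V3 gave no call as labelled. Of 10077 genes none passed (limma, adjusted p under 0.05), and 146 had an unadjusted p under 0.05. Without replicate 2, 32 of 8936 genes passed (0.358%), 3 higher (0.0336%) and 29 lower (0.325%) in thoracic V3, from 2 libraries a group. Grm5, a metabotropic glutamate receptor, was at 1563 and 1352 CPM in cervical 1 and 3 and at 247 and 249 CPM in thoracic 1 and 3 (-2.53 ± 0.19 log2 units, limma adjusted p = 0.00164). Fras1, a basement membrane protein, was at 297 and 304 CPM in cervical 1 and 3 and at 31.1 and 25.1 CPM in thoracic 1 and 3 (-3.21 ± 0.32 log2 units, limma adjusted p = 0.00678). The long non-coding RNA Gm32647, the most variable gene within V3, was at 4650 and 2482 CPM against 452 and 144 CPM (-3.71 ± 0.47 log2 units, limma adjusted p = 0.0126). Nox4, an oxidase, Sema5a, a semaphorin, Tox, a nuclear protein, Rasgef1b, an exchange factor of small GTPases, and Kcnt2, a potassium channel, were lower by 2.38 to 3.02 log2 units. Celf2, an RNA-binding protein, Meis2, a homeobox cofactor, and Serpine2, a protease inhibitor, were the 3 genes higher in thoracic V3, by 1.71, 1.33 and 2.08 log2 units.

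The 2 libraries left out of that fit gave the opposite order. Grm5 was at 270 CPM in the library labelled cervical 2 and 966 CPM in that labelled thoracic 2, Fras1 at 42.5 and 223 CPM, and Gm32647 at 239 and 1755 CPM. The sign of the thoracic minus cervical difference in replicate 2 was opposite to that of the other replicates in all 32 genes, against 55.9% of the 8936 genes tested. Over the 32 genes the median difference was -1.95 log2 units without replicate 2 and 1.53 log2 units within it.

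Male and female pools (replicates 2 and 3, 3 libraries each) differed in V3 for 4 of 9629 genes (0.0415%), 3 higher in males (0.0312%) and 1 lower (0.0104%), with region as a term in the model. The Y-linked genes Eif2s3y, Uty and Kdm5d were higher in the male pool by 4.60, 4.55 and 3.61 log2 units, and the X-inactivation transcript Xist was lower by 7.11 ± 0.25 log2 units (limma adjusted p = 4.62e-05). Xist was at 0 CPM in all 3 male libraries and at 538 (cervical), 797 (thoracic) and 757 CPM (lumbar/sacral) in the female ones, so that the sex labels of replicate 2 did not go against the data. In all 752 genes had an unadjusted p under 0.05. The count rested on single libraries, with 280 genes without the library labelled cervical 2, 327 without cervical 3, 1 without thoracic 2, and 0 without lumbar/sacral 2 or 3. It was 6 when region was coded as lumbar/sacral against the rest. The region term of the main fit kept the labels as given. The cervical and thoracic libraries of replicate 2 thus entered under the labels they went against, which bears on SE, p-values and calls. The part of this in the counts was not tested. Sex and pool of mice cannot be told apart in this comparison.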

How the data were processed

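The deposited annotation and matrix were used for 9 libraries of droplet snRNAseq. Per the labels, Cell Ranger 3.1.0, Seurat and the mm10 build were used by the authors, and nuclei were clustered and named by them. The deposited values are whole numbers that behave as corrected counts from a variance-stabilising regression (SCTransform, per the study's methods), so they were treated as a score of abundance and not as raw counts, and no count model was used. Depth differences between nuclei were reduced by that correction, and the raw depth is not given in the sources used here. Library labels came from barcode suffixes.

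Values of V3 nuclei were summed per library and scaled to CPM (at least 10 nuclei). Genes with 10 CPM or more in 3 or more sums were tested on log2(CPM + 5) with limma 3.58.1 (trend) in R 4.3.3, with Benjamini-Hochberg adjustment over all genes at 0.05. Summaries used Python 3.11.15. Shares were compared with exact permutation tests. Genes named by rule were Postn, Fbn2, the 15 highest and 10 lowest set-apart genes, 8 per direction of each comparison, the 10 most variable genes and members of 31 gene lists. Members, lists and tests were chosen with earlier results of these data known. Some members of these lists are not reported here. Gene positions came from GENCODE M21. The libraries of a pool came from the same mice, per the study's methods, so replicate numbers pair them. Correlations of deviations from the region means were 0.416 to 0.586 in replicate 1, 0.0651 to 0.333 in replicate 2 and -0.0987 to 0.457 in replicate 3.

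On simulated data 86% of genes changed by 2 log2 units and 29% of those changed by 1 were recovered in the lumbar/sacral layout (10077 genes), with 3.36% false among calls. The simulated libraries were drawn independently around a common mean per gene, without the correlation within pools or the pattern of replicate 2. False shares were 10.4% in the V5 layout (10723 genes) and 14.5% in the sex layout (9629 genes), above the nominal level. The main fits held no pool term. Their p-values measure the spread between libraries around the fitted terms, with libraries from the same mice counted as independent. The main exact permutation tests likewise moved libraries freely across the 3 pools.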

Additional observations from a re-analysis of the deposited data

Results flagged for a closer look

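The results below are differences between 2 clusters under the same contrast, namely genes whose lumbar/sacral difference in V3 departed from that in V5 in the test of the difference itself (limma on within-library differences, 7 libraries). The lumbar/sacral difference was higher in V3 than in V5 for Rxfp1 (4.26 log2 units), Reln (4.11), Mctp2 (3.22), A330015K06Rik (2.96), Kcnab1 (2.94), C1ql3 (2.78), Zfp385b (2.75) and Gfra1 (2.29). Such a difference can include a fall in V5, as it did for Kcnab1. A330015K06Rik lies within the span of Kcnab1 on the opposite strand, so that reads of the 2 may not be separable. C1ql3, a secreted synaptic organiser, was low throughout, at 8.51 CPM in lumbar/sacral V3 and 18.4 CPM in the other V5 sums. The lumbar/sacral difference was lower in V3 than in V5 for Prr16 (-3.71 log2 units), Erbb4 (-3.10), Meis2 (-3.06), Oprm1 (-3.01), Itga6 (-2.87), Cdh23 (-2.85), Plce1 (-2.80) and Fam46a (-2.79). Cdh23, a cadherin of hair cell tip links, was at 17.6 CPM in lumbar/sacral V3 and 150 CPM in lumbar/sacral V5, and Itga6, an integrin subunit, at 6.39 and 34.6 CPM. Meis2 rested on uneven libraries, since the other V5 sums ranged from 4.87 to 458 CPM.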

How the results depend on the processing

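The V3 share of visceral nuclei in lumbar/sacral cord, 3.28 points above the rest, was between 2.56 and 4.29 points with single libraries left out and 1.41 points without replicate 2 (exact permutation p = 0.733), and reversed to -1.14 points with all cholinergic nuclei as denominator. The thoracic minus cervical share lay between -7.06 and -2.73 points with single libraries left out. With the replicate block, the share differences had exact permutation p of 0.296 and 0.5, lumbar/sacral calls went from 156 to 265, calls against V5 from 112 to 176, and thoracic against cervical stayed at 0 calls (303 at an unadjusted p under 0.05).

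Leaving out 1 library at a time gave 40 to 192 lumbar/sacral calls, 38 to 244 calls against V5, 0 to 327 sex calls, 0 thoracic against cervical calls and 34 to 43 set-apart genes. Without replicate 2, thoracic against cervical calls went from 0 to 32. Calls against V5 without replicate 2 numbered 124, an alternative chosen after seeing the data, as were the coarser region term for sex and the shares without replicate 2. Without the filter on low values there were 27 calls against V5 and 12 sex calls. With a minimum of 25 nuclei there were 206 calls against V5. With at least 10 corrected counts in every sum there were 0 sex calls. Set-apart genes numbered 60 with a pseudocount of 1 and 14 with a pseudocount of 20, and the split of 26 higher to 8 lower turned to 12 and 17 with the summed nuclei of the other clusters as reference. Meis2, thoracic against cervical, ranged from -0.15 (without thoracic 1) to 0.97 log2 units (without thoracic 2). For 66 named genes called in lumbar/sacral V3, 922 of 1123 alternative values stayed past the threshold, 201 did not and none reversed, and 27 genes stayed called throughout. The cause of these changes was not tested.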
